A study of Paeonia suffruticosa with 12 samples.

Results

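Non-specific lipid transfer proteins (nsLTPs) were followed in embryo seedlings of the tree peony "FengDan" raised with and without anti-browning agents. The members were all unigenes, that is assembled transcripts grouped as genes, whose symbol starts with NLTP in the study's tables of differentially expressed genes, and they numbered 33 of 130956 unigenes in the assembly. By symbol there were 18 NLTP, 6 NLTP1, 4 NLTP2, 1 NLTP3 and 4 NLTPC unigenes. Each symbol is the name of a matching protein entry, so the digit in it does not by itself place a unigene in a structural type of the family. Those tables, made from these same libraries, set AC against CK (21 members listed), against PVP (13) and against AC and PVP (1), and PVP against AC and PVP (19). A member's difference in any of these comparisons is a description and not independent evidence of its direction. The other comparisons reuse the same libraries. Counts and medians of the members set beside those of all unigenes are therefore descriptions in every comparison, since members were listed for differing.

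The study set 4 media side by side with 3 libraries each. CK had neither agent, PVP had polyvinyl pyrrolidone at 2 g/L, AC had activated carbon at 0.9 g/L, and AC and PVP had 0.9 g/L carbon with 2.5 g/L polyvinyl pyrrolidone, so the amount of PVP was not equal in the media with and without carbon. All seedlings were grown from excised embryos of the same cultivar, and the labels give mixed root, stem and leaf material taken 30 days after rooting for every library, whereas the study's methods speak of leaves and roots of 10 pooled embryos. The study described CK and PVP seedlings as failing to root, so the time point is unclear for those 6 libraries, and the agent and the share of root tissue in a pool cannot be told apart. In bulk RNA, fewer cells of a type and less RNA per cell cannot be told apart either.

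Plant nsLTPs are small, basic, secreted proteins whose fold, held by conserved cysteine bridges, encloses a hydrophobic tunnel that binds fatty acids and other lipids. They are known for carrying lipid monomers to the cell surface where cutin, suberin and wax are laid down, for a part in defence against microbes, and for being abundant in germinating seeds and young epidermis. In castor bean, a protein with the name nsLTP C was described from seedling cotyledons.

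Total estimated counts per library ran from 11071691 (AC and PVP replicate 3) to 25069044 (PVP replicate 2). Levels are given as CPM, the count relative to the library total after TMM scaling, for replicates 1, 2 and 3 in that order, and are not corrected for transcript length, so they are compared between libraries and not between unigenes. The TMM factors ran from 0.752 to 1.47. A unigene was called where the adjusted p (edgeR quasi-likelihood test, Benjamini-Hochberg over 58247 unigenes) was under 0.05 and the absolute log2 fold change over 1. Some libraries stood apart in seed reserve transcripts, 14 unigenes of storage and oil body proteins, which summed to 101, 44117 and 40.5 CPM in CK, 37.8, 55.1 and 344 CPM in PVP, 9482, 28159 and 2752 CPM in AC, and 842, 22380.0 and 6418 CPM in AC and PVP. The 11 green shoot unigenes summed to between 43.6 and 577 CPM, with 8 of 11 above 0 in all 12 libraries, and the 6 root endodermis unigenes to between 32.4 and 228 CPM, with 6 of 6 above 0 in all. Summed endodermis levels were 32.4 to 49.8 CPM in the 6 libraries with AC and 50.9 to 228 CPM in the 6 without. The unigenes of this list did not move together, as their CPM of the library total, here without TMM scaling, show. The one with most counts, PER64 DN9029, had 6.93 to 29.7 CPM with carbon and 19.1 to 139 without. CSPL5 DN2359, with 0.504 to 3.34 and 3.05 to 29.1, was also mostly lower with carbon. So was MYB36 DN3020, with 1.9 to 3.55 and 2.28 to 12.3. Mostly higher with carbon were CSPLA DN113520, with 1.61 to 11.9 and 0.131 to 1.83, and PER64 DN105044, with 0.886 to 10.8 and 0.239 to 1.62. CSPLB DN9283 had 4.15 to 15.9 and 1.39 to 16.1.

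All 33 members passed the low-count filter, a count above 0 in at least 3 of 12 libraries. Together they took 0.338% to 3.76% of all counts, and their levels summed to 2306, 9832 and 5939.7 CPM in CK, 20492, 13830.0 and 15469 CPM in PVP, 12024, 28262 and 22063 CPM in AC, and 23923, 27773 and 37468 CPM in AC and PVP. CK held the 3 lowest of the 12 sums, and AC and PVP replicate 3 the highest. The lowest group mean was in CK for 27 of 33 members, and the highest in AC and PVP for 21, in AC for 6 and in PVP for 6, or 22, 6 and 4 with 1 in CK where TMM scaling was left out. The single library with the lowest level was CK replicate 1 for 25 members, and AC and PVP replicate 3 had the highest level for 18.

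**Figure D1:**
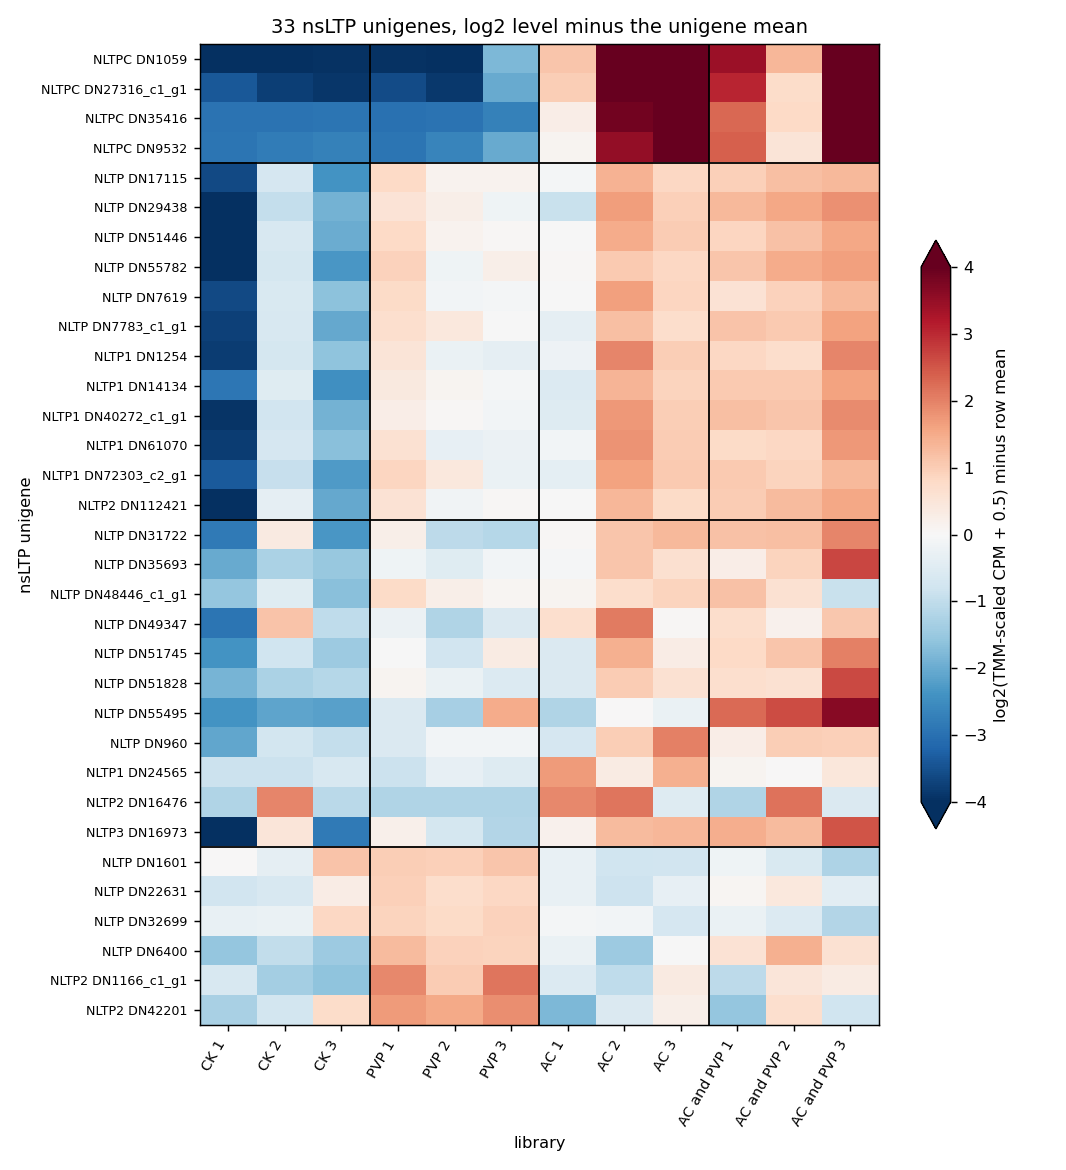
Heat map of the 33 nsLTP unigenes (rows) in the 12 libraries (columns, by group and replicate); colour is log2(CPM + 0.5) minus the mean of that unigene over the libraries, with colours saturating at 4 either way. From top to bottom the blocks hold the 4 NLTPC unigenes, 12 that vary together with the NLTP2 unigene of largest count, 11 others, and the 6 with their highest group mean in PVP; CK replicate 1 is blue through most of the second block.

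The 4 NLTPC unigenes were near absent in all 6 libraries without carbon and present in all 6 libraries with it. TRINITY_DN1059_c0_g1 had 0.178, 0.329 and 0.388 CPM in CK, 0.402, 0.231 and 3.49 CPM in PVP, 29.1, 311 and 562 CPM in AC, and 148, 34.5 and 1433 CPM in AC and PVP. TRINITY_DN27316_c1_g1 had 0.267, 0.0896 and 0.0388 CPM in CK, 0.169, 0.053 and 1.5 CPM in PVP, 15.5, 158 and 240.3 CPM in AC, and 66.1, 13 and 772 CPM in AC and PVP. In both, the lowest library with carbon, AC replicate 1 or AC and PVP replicate 2, was above the highest library without it, PVP replicate 3.

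TRINITY_DN35416_c0_g1 had 0.0297, 0.0291 and 0.0388 CPM in CK, 0.0207, 0.0345 and 0.127 CPM in PVP, 4.42, 58.6 and 95.7 CPM in AC, and 19.9, 6.57 and 218 CPM in AC and PVP. TRINITY_DN9532_c0_g1 had 0, 0.0448 and 0.0784 CPM in CK, 0, 0.106 and 0.437 CPM in PVP, 3.59, 42.9 and 65.2 CPM in AC, and 19.3, 4.89 and 150.3 CPM in AC and PVP. Again no library with carbon overlapped any library without it, and PVP replicate 3 was the highest of the 6 without carbon. Summed over the 4 unigenes and the 3 libraries of a group, the estimated counts were 34803 in AC and PVP and 28238 in AC, against 111 in PVP, most of them in PVP replicate 3, and 41 in CK.

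Within the groups with carbon the libraries differed widely and the 4 unigenes differed together. Summed NLTPC levels were 52.7, 570 and 963 CPM in AC and 253, 59.0 and 2574 CPM in AC and PVP. The share of each unigene in their sum stayed in a narrow band over the 6 libraries: DN1059 made up 54.5% to 58.5%, DN27316 22.1% to 30.0%, DN35416 7.86% to 11.1% and DN9532 5.84% to 8.28%. Pearson's r between any pair of them was 0.987 to 0.998 over the 12 libraries, on log2(CPM + 0.5), values that share library, depth and medium. Reads that match near-identical copies can be divided among unigenes by the counting, so 4 separate genes cannot be told apart from fewer genes with several assembled copies.

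Set against CK, the NLTPC unigenes were 4 of 4 called higher in AC, as were 0.182% of all tested unigenes, with log2 fold changes of 9.74 to 10.27 and edgeR adjusted p of 0.00449 to 0.0227. Set against PVP, AC had 4 of 4 higher (0.0618% of all unigenes) at 7.79 to 9.82, with edgeR adjusted p of 0.00155 to 0.0361. The medium with both agents had 4 of 4 higher than PVP (0.0292% of all unigenes) at 8.43 to 10.45 (edgeR adjusted p 0.00257 to 0.049), and 4 of 4 higher than CK (0.465%) at 10.39 to 10.91 (0.00141 to 0.0115). Called were 0 of 4 in PVP vs. CK (0.527% of all unigenes higher and 0.175% lower), where the log2 fold changes were 0.45 to 2.19 (edgeR adjusted p 0.588 to 0.961), and 0 of 4 in AC vs. AC and PVP (-1.04 to -0.62, adjusted p 0.827 to 0.855), and in both 0 had an unadjusted p under 0.05 and DESeq2 called 0. Where the side without carbon had 3 counts or fewer, the ratio of group counts scaled to depth is given with an exact 95% interval that covers counting error only: AC vs. CK was 1275 (436 to 6187) for DN35416 and 900.1 (308 to 4369) for DN9532.

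For the mean effect of carbon over media with and without PVP, the 4 NLTPC log2 fold changes were 9.09 to 10.36 (edgeR adjusted p 1.81e-05 to 0.000888; 0.312% of all unigenes were called higher), and 4 of 4 remained called whichever of the 12 libraries was left out (8.02 to 10.85, highest adjusted p 0.00497). In the pairs of groups the calls rested on single libraries. In AC vs. CK the number called was 0 without CK replicate 3, 1 without CK replicate 1 and 1 without AC replicate 3. Between both agents and CK it was 1 without CK replicate 3. Between both agents and PVP it was 0 without PVP replicate 2, 1 without AC and PVP replicate 3, PVP replicate 1 or PVP replicate 3, and 2 without AC replicate 2, AC replicate 3 or AC and PVP replicate 1. In AC vs. PVP it was 1 without PVP replicate 1 or 2, and 2 without PVP replicate 3, AC replicate 2 or AC replicate 3. No NLTPC log2 fold change in these 4 pairs fell under 6.16 in any of these fits.

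Seed reserve transcripts did not follow the NLTPC unigenes in every library. CK replicate 2, with the highest seed reserve sum, 44117 CPM, had 0.493 CPM of NLTPC in all. AC and PVP replicate 2 had 22380.0 CPM of seed reserves with 59.0 CPM of NLTPC, and AC and PVP replicate 3 had 6418 CPM with 2574 CPM. Without CK replicate 2 and AC replicate 2 together, a setting chosen after seeing the data, 2 of 4 NLTPC unigenes were called in AC vs. CK and 4 of 4 in the mean effect of carbon.

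**Figure D2:**
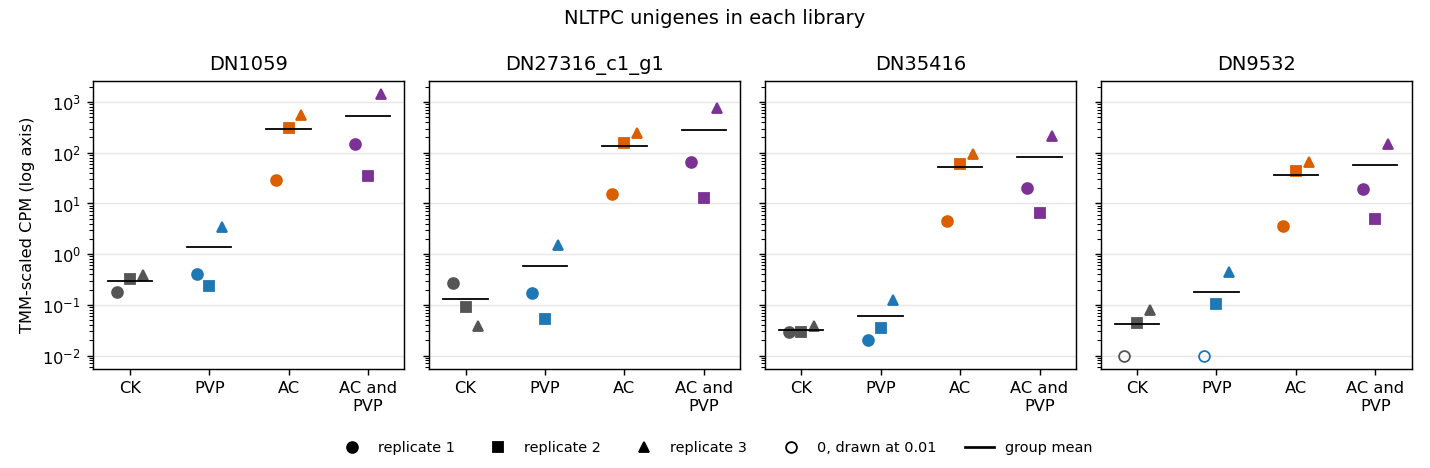
Level of each of the 4 NLTPC unigenes in the 12 libraries, in TMM-scaled CPM on a log axis, by group; marker shape is the replicate, a black line the group mean, and an open circle a level of 0. In every panel the 6 libraries with carbon lie above the 6 without, and AC replicate 1 and AC and PVP replicate 2 are the lowest with carbon.

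Among 639 named unigenes of the study's tables outside the family, those with the pattern most like the mean of the NLTPC unigenes over 12 libraries were PTR1 (TRINITY_DN331_c1_g1), a peptide transporter, with r = 0.974, HIP7 (TRINITY_DN3674_c0_g1), a heavy metal-associated protein, with 0.961, UGTK4 (TRINITY_DN3727_c0_g1), a glycosyltransferase, with 0.952, EPFL9 (TRINITY_DN9437_c0_g1), the stomagen peptide of stomatal patterning, with 0.948, and SOFL5 (TRINITY_DN13370_c0_g1) with 0.948. The candidates were themselves picked as differing between these libraries, and the correlations are descriptions over libraries that share medium and depth. PTR1 had 0.0297, 0.359 and 0 CPM in CK, 0.0423, 0 and 0.374 CPM in PVP, 6.52, 8.69 and 36.7 CPM in AC, and 16.7, 8.54 and 54.6 CPM in AC and PVP. Like NLTPC, it was lowest of the AC and PVP libraries in replicate 2 and highest in replicate 3.

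Among NLTP1 unigenes, TRINITY_DN24565_c0_g1 was the one nearest to this pattern of absence without carbon. It had 0, 0 and 0.0777 CPM in CK, 0, 0.212 and 0.125 CPM in PVP, 2.4, 0.625 and 1.93 CPM in AC, and 0.474, 0.403 and 0.72 CPM in AC and PVP. All 6 libraries with carbon were above all 6 without, at low counts: 103 counts over the AC libraries and 24 over those of AC and PVP, against 6 over PVP and 2 over CK. The ratio AC vs. CK was 69.7 (exact 95% interval 18.8 to 583), and the fitted log2 fold change was 5.76 (SE 1.01, adjusted p = 0.0227), edgeR. That call was lost without AC replicate 1 (adjusted p = 0.0515), AC replicate 3 (0.0816), CK replicate 1 (0.0731) or CK replicate 3 (0.0707). Its mean effect of carbon was 4.0 (SE 0.709, adjusted p = 0.00728) by edgeR.

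TRINITY_DN35693_c0_g1, an NLTP unigene, had 0.138, 0.574 and 0.389 CPM in CK, 1.79, 1.34 and 1.89 CPM in PVP, 1.96, 5.08 and 3.51 CPM in AC, and 2.55, 4.28 and 15.9 CPM in AC and PVP. Its libraries with carbon were above all those without, and it was called higher in AC vs. CK at 3.26 (SE 0.654, adjusted p = 0.0481), in AC and PVP vs. CK at 4.36 (SE 0.67, adjusted p = 0.0115) and in the mean effect of carbon at 2.72 (SE 0.441, adjusted p = 0.00753), edgeR. The AC vs. CK call was lost without any of 9 libraries, those other than CK replicate 2 and AC and PVP replicates 1 and 3 (adjusted p, edgeR, 0.0515 to 0.156), and the AC and PVP vs. CK call without CK replicate 3 (0.0540). With the 4 NLTPC and DN24565, it made up the 6 members whose 6 carbon libraries were all above the 6 others, which 0.285% of all tested unigenes showed.

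TRINITY_DN55495_c0_g1, an NLTP unigene, was highest in the medium with both agents. It had 7.58, 9.38 and 8.92 CPM in CK, 27.8, 16.4 and 118 CPM in PVP, 18, 42.5 and 34.5 CPM in AC, and 200.3, 255 and 527 CPM in AC and PVP. All AC and PVP libraries were above all 9 others, PVP replicate 3 was the next highest, and CK was lowest in all 3 replicates. Both agents against CK gave 5.25 (SE 0.679, adjusted p = 0.00631), edgeR, a call that held whichever of the 12 libraries was left out. Each agent alone against CK was not called by edgeR, with 2.65 (adjusted p = 0.0565) for PVP and 1.87 (adjusted p = 0.265) for AC. Nor was the interaction of carbon and PVP called, at 0.72 (SE 0.806, adjusted p = 0.843), edgeR. AC vs. AC and PVP gave -3.37 (SE 0.621, adjusted p = 0.362) with an unadjusted p of 6.22e-05, and it was not called in the edgeR fit of all libraries, while DESeq2 called it on the same libraries (log2 fold change -3.44, adjusted p = 0.000356). Its mean effect of carbon was 2.24 (SE 0.42, adjusted p = 0.0192) by edgeR, lost without AC replicate 2 (0.0532) or AC and PVP replicate 3 (0.0514).

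NLTP unigenes TRINITY_DN51828_c0_g1 and TRINITY_DN51745_c0_g1 were called in AC and PVP vs. CK and in the mean effect of carbon. DN51828 had 0.238, 0.603 and 0.715 CPM in CK, 2.4, 1.75 and 1.32 CPM in PVP, 1.29, 4.92 and 3.58 CPM in AC, and 3.81, 3.55 and 16.2 CPM in AC and PVP. DN51745 had 22.8, 69 and 44.4 CPM in CK, 121, 71.6 and 152 CPM in PVP, 80.6, 324 and 148 CPM in AC, and 213, 263 and 494 CPM in AC and PVP. In both, every AC and PVP library was above every CK library, and AC and PVP replicate 3 was the highest of 12. The difference from CK was 3.95 (SE 0.66, adjusted p = 0.0164) for DN51828 and 2.83 (SE 0.54, adjusted p = 0.0264) for DN51745, edgeR, and both calls were lost without AC and PVP replicate 3, CK replicate 1 or CK replicate 3 (adjusted p 0.0553 to 0.104). The mean effect of carbon was 2.39 (SE 0.439, adjusted p = 0.0172) for DN51828 and 1.76 (SE 0.367, adjusted p = 0.0355) for DN51745. These were also lost without single libraries: without AC replicate 2, PVP replicate 2 or PVP replicate 3 for DN51828 (edgeR adjusted p 0.0518 to 0.0571), and without any of 9 libraries for DN51745 (0.0533 to 0.111).

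A block of 12 members varied together across libraries. TRINITY_DN112421_c0_g1, an NLTP2 unigene, had the largest total count of the family and made up 20.7% to 67.4% of the nsLTP counts of a library. It had 476, 5945 and 1860.2 CPM in CK, 11480.0, 6901 and 7965 CPM in PVP, 7589.6, 19055 and 12916 CPM in AC, and 15597, 18183 and 22249 CPM in AC and PVP. CK replicate 2 was 12.5 times CK replicate 1, PVP replicate 1 was the highest of PVP, and the AC and PVP libraries were the least spread. The other 11 unigenes with r of at least 0.95 with it were 6 NLTP and 5 of the 6 NLTP1, and the lowest r among the 12 was 0.954 over 12 libraries that share depth and medium. This block was drawn from the values, so it is described here and not tested as a list.

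In all 12, CK replicate 1 was the lowest and replicate 2 the highest CK library, AC replicate 1 the lowest and replicate 2 the highest AC library, PVP replicate 1 the highest PVP library, and AC and PVP replicate 3 the highest of its group. The highest level of a group was a median 11.1 times the lowest in CK (8.25 to 16.8), 1.68 times in PVP (1.29 to 2.23), 3.44 times in AC (2.03 to 6.13) and 1.49 times in AC and PVP (1.28 to 2.39). CK replicate 2 and AC replicate 2, the highest of their groups in these unigenes, were also the highest of their groups in seed reserve sums. In AC and PVP the highest seed reserve sum was in replicate 2 and the highest level of all 12 in replicate 3, and the part of seed reserves in these values was not tested.

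The NLTP1 unigenes of the block followed this order. TRINITY_DN1254_c0_g1 had 37.3, 318 and 171 CPM in CK, 754, 433 and 411 CPM in PVP, 455, 2008 and 1036 CPM in AC, and 925, 846 and 2026 CPM in AC and PVP. TRINITY_DN40272_c1_g1 had 10.4, 96.6 and 43.9 CPM in CK, 198, 172 and 153 CPM in PVP, 116, 556 and 326 CPM in AC, and 383, 358 and 618 CPM in AC and PVP. TRINITY_DN72303_c2_g1 had 0.436, 4.57 and 1.47 CPM in CK, 16.6, 12.2 and 7.44 CPM in PVP, 6.84, 28.8 and 19 CPM in AC, and 19.3, 17.1 and 23 CPM in AC and PVP. In these 3 the CK libraries were below every AC and PVP library and below every PVP library.

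TRINITY_DN14134_c0_g1, a further NLTP1 of the block, had 0.318, 3.78 and 0.607 CPM in CK, 7.43, 5.98 and 5.19 CPM in PVP, 3.66, 15 and 10.6 CPM in AC, and 11.9, 12.1 and 17.8 CPM in AC and PVP. The remaining NLTP1, TRINITY_DN61070_c0_g1, ran from 5.47 to 286 CPM with a median of 101. In AC and PVP against CK, edgeR called DN72303 at 3.21 (SE 0.648, adjusted p = 0.0345), DN40272 at 3.17 (SE 0.658, adjusted p = 0.0372) and DN14134 at 3.17 (SE 0.682, adjusted p = 0.0431). It did not call DN1254, at 2.85 (SE 0.695, adjusted p = 0.0688), whose libraries also did not overlap between these groups. DN40272 was the single member of the block that edgeR called for the mean effect of carbon, at 2.05 (SE 0.445, adjusted p = 0.0438), and without any of 8 libraries it was not (edgeR adjusted p 0.0812 to 0.124). For this effect 12 of 12 members of the block had an unadjusted edgeR p under 0.05, and DESeq2 called 12. Of all 58247 unigenes, in either direction, 6520 had such a p and DESeq2 called 949.

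The NLTP unigenes of the block had the same shape. TRINITY_DN55782_c0_g1 had 4.22, 49.2 and 15.6 CPM in CK, 153, 71.7 and 94.6 CPM in PVP, 83.1, 168 and 142 CPM in AC, and 176, 224 and 249.5 CPM in AC and PVP. TRINITY_DN29438_c0_g1 had 1.39, 17.4 and 8.97 CPM in CK, 51.1, 41.1 and 30.5 CPM in PVP, 18.3, 112 and 67.8 CPM in AC, and 86.1, 101 and 125 CPM in AC and PVP. TRINITY_DN7783_c1_g1 had 2.74, 27.3 and 10.1 CPM in CK, 69.5, 57.2 and 42.5 CPM in PVP, 33.3, 99.6 and 70.1 CPM in AC, and 95.3, 89.9 and 133 CPM in AC and PVP. Each was lowest in CK replicate 1 and highest in AC and PVP replicate 3.

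TRINITY_DN17115_c0_g1 had 0.631, 8.13 and 2.17 CPM in CK, 23.5, 14.7 and 14.8 CPM in PVP, 12.8, 35.9 and 24.2 CPM in AC, and 26.1, 31.5 and 33.4 CPM in AC and PVP, with its highest library in AC replicate 2. In the same comparison edgeR called DN55782 at 3.24 (SE 0.632, adjusted p = 0.0292), DN29438 at 3.49 (SE 0.705, adjusted p = 0.0345), DN7783 at 2.99 (SE 0.605, adjusted p = 0.0345) and DN17115 at 3.07 (SE 0.636, adjusted p = 0.0372). TRINITY_DN51446_c0_g1, with 2.07 to 161 CPM, and TRINITY_DN7619_c0_g1, with 17.0 to 660 CPM, were not called in any pair of groups. The 7 edgeR calls of the block in AC and PVP vs. CK were all lost without CK replicate 3, without any one of the AC and PVP libraries, and in an edgeR fit of the 2 groups alone. In that comparison 12 of 12 had an unadjusted edgeR p under 0.05, and DESeq2 called 12. In PVP vs. CK all 12 were higher in every PVP library than in any CK library (6% of all unigenes were), with log2 fold changes of 1.6 to 2.5, and 0 were called (edgeR adjusted p 0.0839 to 0.466, 11 at an unadjusted p under 0.05, and 7 called by DESeq2). In AC vs. CK the log2 fold changes were 2.26 to 3.09, and 11 of 12 did not overlap (3.7% of all unigenes). Of the 12, 0 were called (edgeR adjusted p 0.0576 to 0.383), 12 had an unadjusted p under 0.05, and DESeq2 called 12. Of all 58247 unigenes, in either direction, 6512 had such a p in PVP vs. CK, 5435 in AC vs. CK and 7439 in AC and PVP vs. CK. DESeq2 called 1689, 823 and 1608 of all unigenes.

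The NLTP3 unigene, TRINITY_DN16973_c0_g1, had 47.7, 1083 and 108 CPM in CK, 885, 475 and 342 CPM in PVP, 858, 1861 and 1922 CPM in AC, and 2085, 1859 and 4434 CPM in AC and PVP. CK replicate 2 stood apart from the other CK libraries and was above AC replicate 1, and all AC and PVP libraries were above all CK and all PVP libraries. It was not called in any comparison by edgeR on all libraries. An edgeR fit of the 2 groups alone called it higher in AC and PVP vs. PVP (adjusted p = 0.0429). For both agents the difference from CK was 2.76 (SE 0.877, adjusted p = 0.172) and that from PVP 2.3 (SE 0.861, adjusted p = 0.448), edgeR.

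The members outside these groups with no call by edgeR on all libraries were TRINITY_DN960_c0_g1 (82.9 to 1400 CPM, median 322), TRINITY_DN31722_c0_g1 (0.590 to 29.6, median 9.09), TRINITY_DN49347_c0_g1 (2.17 to 84.8, median 21.4) and TRINITY_DN48446_c1_g1 (0.164 to 4.20, median 1.87), all NLTP. DESeq2 on all libraries called DN960 higher in AC vs. CK (log2 fold change 2.342, adjusted p = 0.00324) and in AC and PVP vs. CK (2.045, 0.00851). DN48446 was also called higher by DESeq2 in AC vs. CK (2.641, 0.017) and in AC and PVP vs. CK (2.602, 0.0112). DN960 was highest in AC replicate 3, DN49347 in AC replicate 2, and DN31722 in AC and PVP replicate 3. In DN49347, CK replicate 2 with 44.0 CPM was above every PVP library and above AC replicates 1 and 3.

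A different order was seen in 6 members whose highest group mean was in PVP: NLTP2 TRINITY_DN1166_c1_g1 and TRINITY_DN42201_c0_g1, and NLTP TRINITY_DN6400_c0_g1, TRINITY_DN22631_c0_g1, TRINITY_DN1601_c0_g1 and TRINITY_DN32699_c0_g1. DN1166 had 26, 15.7 and 13 CPM in CK, 156, 83.2 and 181 CPM in PVP, 28.1, 19.9 and 52.3 CPM in AC, and 19.5, 57.3 and 52 CPM in AC and PVP. The 3 PVP libraries were above all 9 others. PVP vs. CK gave 2.94 (SE 0.475, adjusted p = 0.0202), and this NLTP2 was called by edgeR. The difference from PVP was -2.07 (SE 0.46, adjusted p = 0.0873) in AC and -1.71 (SE 0.454, adjusted p = 0.271) in AC and PVP, edgeR. Libraries did not overlap in either, and edgeR called neither. DESeq2 on all libraries called DN1166 lower in AC vs. PVP (log2 fold change -2.099, adjusted p = 0.00374). The PVP vs. CK call was lost without CK replicate 3 (edgeR adjusted p = 0.0745), PVP replicate 1 (0.0568) or PVP replicate 3 (0.0573).

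DN42201 had 84.8, 125 and 351 CPM in CK, 684, 592 and 762 CPM in PVP, 60.1, 140.1 and 243 CPM in AC, and 71.8, 330.3 and 121 CPM in AC and PVP. Its PVP libraries were above all 9 others too, with CK replicate 3 and AC and PVP replicate 2 the next highest. PVP vs. CK gave 1.86 (SE 0.616, adjusted p = 0.205) and AC vs. PVP -2.2 (SE 0.623, adjusted p = 0.233), edgeR, neither called. DESeq2 on all libraries called DN42201 lower in AC vs. PVP (log2 fold change -2.215, adjusted p = 0.03).

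DN6400 had 149, 219.8 and 159.8 CPM in CK, 1054, 827 and 817 CPM in PVP, 363, 159.8 and 436 CPM in AC, and 653, 1173 and 664 CPM in AC and PVP. Here the AC and PVP libraries overlapped the PVP libraries, and both groups were above CK and above all 3 AC libraries. PVP vs. CK gave 2.35 (SE 0.426, adjusted p = 0.0279) and AC and PVP vs. CK 2.23 (SE 0.424, adjusted p = 0.0259), both called by edgeR, while AC vs. CK gave 0.86 (SE 0.408, adjusted p = 0.541). The PVP vs. CK call was lost without CK replicate 1 or 3 or any PVP library (edgeR adjusted p 0.0535 to 0.0913), and that of AC and PVP vs. CK without CK replicate 1 or 3 or any AC and PVP library (0.0522 to 0.0935).

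DN22631, the NLTP unigene with the largest total count, had 974, 1075 and 2077 CPM in CK, 3274, 2719.5 and 2952 CPM in PVP, 1348, 949 and 1332 CPM in AC, and 1760.2, 2258 and 1242 CPM in AC and PVP. Its PVP libraries were above all others, by less than in DN1166, and PVP vs. CK gave 1.12 (SE 0.449, adjusted p = 0.336), edgeR, with no call. DN1601 had 332, 252 and 724 CPM in CK, 645, 638 and 701 CPM in PVP, 265, 189 and 191 CPM in AC, and 288, 216 and 138 CPM in AC and PVP. CK replicate 3 was its highest library, with the PVP libraries next, and all 6 libraries with carbon were below all PVP libraries. DN1601 was the one member that edgeR on all libraries called lower in any comparison, with a mean effect of carbon of -1.32 (SE 0.29, adjusted p = 0.0465). That call was lost without any one of the libraries other than CK replicate 2 (adjusted p 0.0665 to 0.175) and with either other scaling. In AC vs. PVP, DESeq2 on all libraries called DN1601 (log2 fold change -1.641, adjusted p = 0.00395), DN22631 (-1.321, 0.00638) and DN6400 (-1.518, 0.00515) lower. In AC and PVP vs. PVP, DESeq2 called DN1601 (-1.585, 0.012) and DN32699 (-1.454, 0.0146) lower. DN32699 ran from 9.51 to 41.6 CPM with a median of 19.2, in nearly the order of DN1601 (r = 0.953 over 12 libraries).

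Over these 6, all AC libraries were below all PVP libraries in 6 (6.36% of all unigenes were). All AC and PVP libraries were below all PVP libraries in 5 (6.08%). All 3 PVP libraries were above all 3 CK libraries in 4 (6%). Against PVP the log2 fold changes were -2.2 to -1.14 for AC and -1.96 to -0.12 for both agents, and in PVP vs. CK they were 0.60 to 2.94. These 6 were set apart by their values, so the counts and ranges describe the choice. Without TMM scaling the highest group mean was in AC and PVP for DN6400 and in CK for DN1601. PVP vs. CK was then -0.051 for DN1601 and 0.048 for DN32699, and 0.503 (DN22631) to 2.3 (DN1166) for the others.

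**Figure D3:**
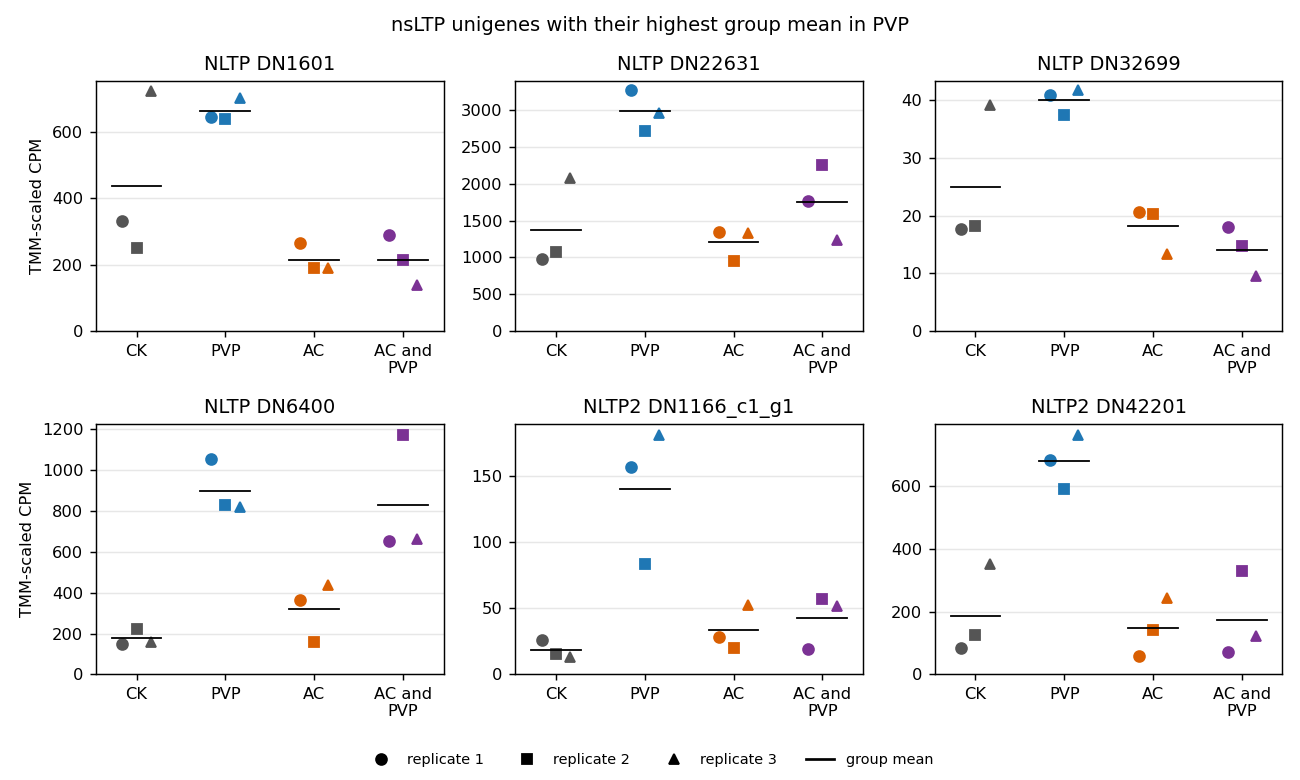
Levels of the 6 members with their highest group mean in PVP, in TMM-scaled CPM on linear axes from 0, by group; marker shape is the replicate and a black line the group mean. DN1166, DN42201 and DN22631 have all 3 PVP libraries above the other 9, while in DN6400 the AC and PVP libraries reach the PVP level.

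Outside the family, the named unigenes most like DN1166 over 12 libraries were 4 that match ubiquitin or ubiquitin-ribosomal fusion entries, R27AA TRINITY_DN44624_c0_g1 (r = 0.95), R27AA TRINITY_DN11891_c2_g1 (0.942), RS27A TRINITY_DN3956_c0_g2 (0.934) and UBIQP TRINITY_DN8526_c2_g1 (0.921), and RLA13 TRINITY_DN9627_c0_g1 (0.918), a protein of the ribosomal stalk. Their group means had DN1166's order of PVP highest, for example 1785 CPM in PVP, 899 in AC and PVP, 662 in AC and 369 in CK for RS27A.

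The fourth NLTP2 unigene, TRINITY_DN16476_c0_g1, was seen in some libraries of CK, AC and AC and PVP and in no PVP library. It had 0, 3.94 and 0.0388 CPM in CK, 0, 0 and 0 CPM in PVP, 3.83, 4.53 and 0.301 CPM in AC, and 0, 4.7 and 0.27 CPM in AC and PVP. Counts were 186 in AC and 73 in AC and PVP, of which 70 were in AC and PVP replicate 2, against 0 in PVP. A count of 0 allows up to 3 over the group. Against that floor, the ratio of group counts scaled to depth was at least 60.1 for AC and 30.2 for AC and PVP. The floor covers counting error only and not the spread between libraries. Libraries of CK, AC and AC and PVP overlapped, AC and PVP replicate 1 also had 0 counts, and edgeR on all libraries called no comparison. In that fit the lowest adjusted p of DN16476 among the 6 pairs of groups was 0.355, in PVP vs. CK. An edgeR fit of the 2 groups alone called it higher in AC vs. PVP (adjusted p = 0.00796).

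Counted over the family, AC vs. CK called 6 of 33 members higher (4 NLTPC, DN24565 and DN35693) and 0 lower, where 0.182% of all 58247 tested unigenes were called higher and 0.142% lower. The members' median log2 fold change was 2.51 against -0.23 for all tested unigenes, and in 22 members all AC libraries were above all CK libraries (3.7% of all unigenes). Without single libraries the count of members ran from 0 (CK replicate 3), 1 (CK replicate 1, or AC replicate 3) to 19 (CK replicate 2).

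AC and PVP vs. CK called 16 of 33 higher and 0 lower (0.465% and 0.371% of all unigenes). These were the 4 NLTPC, 9 NLTP and 3 NLTP1, and 0 of 4 NLTP2 and 0 of 1 NLTP3. The median was 2.85 against -0.12, and 25 members did not overlap (5.84%). Leaving out single libraries moved the count from 2 (CK replicate 3, DN35416 and DN55495 remaining) to 24 (CK replicate 2). It was 6 without AC and PVP replicate 3, 8 without AC and PVP replicate 1 or 2, 9 without CK replicate 1 and 10 without PVP replicate 2.

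PVP vs. CK called 2 of 33 higher, DN1166 and DN6400, and 0 lower (0.527% and 0.175% of all unigenes). The median was 1.86 against -0.16, and in 22 members all PVP libraries were above all CK libraries (6% of all unigenes). The count was 9 without CK replicate 2, 1 without CK replicate 1 and 0 without CK replicate 3, PVP replicate 1 or PVP replicate 3. Without TMM scaling the median of the members was 1.32 and that of all unigenes -0.76.

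AC vs. PVP called 4 higher, the NLTPC unigenes, and 0 lower (0.0618% and 0.201% of all unigenes), with a median of 0.69 against -0.03. Here 8 members were above without overlap (4.76% of all unigenes) and 6 below (6.36%), and the 6 were those with their highest mean in PVP. AC and PVP vs. PVP called the same 4 and 0 lower (0.0292% and 0.0412%), with a median of 1.16 against 0.00. In it 24 members were above without overlap (5.12%) and 5 below (6.08%), the 5 being DN1166, DN42201, DN22631, DN1601 and DN32699. For the mean effect of carbon 10 members were called higher and 1 lower (0.312% and 0.46% of all unigenes), and this count ran from 6 without AC replicate 2 to 28 without CK replicate 2, with 7 without AC and PVP replicate 3, PVP replicate 2 or PVP replicate 3. All 6 pairs had 0 members called lower. The members lower at an unadjusted p under 0.05 (edgeR) were 1 for AC, 2 for AC and PVP and 1 for PVP against CK. They were 6 for AC and 4 for AC and PVP against PVP, and 3 for AC against AC and PVP. In the same order DESeq2 called 0, 0, 0, 5, 2 and 1 members lower, and 331, 602, 509, 480, 180 and 31 of all 58247 unigenes. In either direction, 5435, 7439, 6512, 5013, 5492 and 3659 of all unigenes had an unadjusted edgeR p under 0.05.

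**Figure D4:**
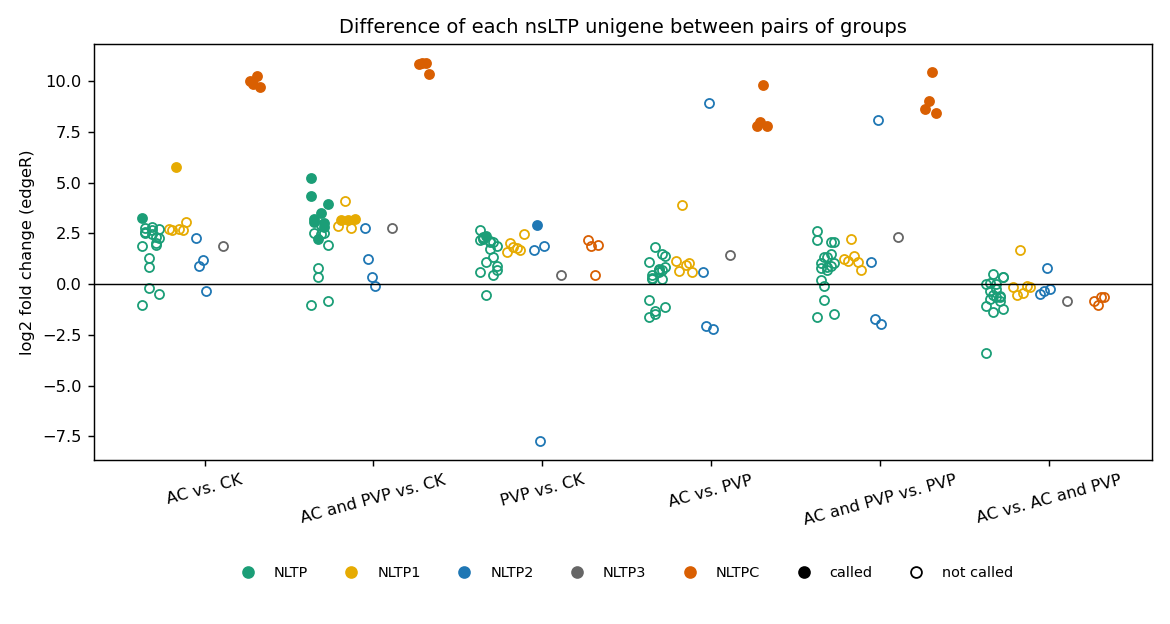
Fitted log2 fold change of each of the 33 members (y axis) in the 6 pairs of groups (x axis), coloured by symbol, with filled points called at adjusted p under 0.05 and open points not called. The 4 NLTPC unigenes lie between 7.79 and 10.91 in the 4 pairs that differ by carbon against CK or PVP, and the open NLTP2 points far from the rest belong to DN16476, which has no count in PVP.

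AC vs. AC and PVP called 0 of 33 members by edgeR (0.00343% of all unigenes were called higher and 0.00343% lower). At an unadjusted edgeR p under 0.05 were 4 members, and 3659 of all 58247 unigenes. DESeq2 called 1 member, DN55495, and 41 of all unigenes. The median was -0.50 against -0.02, and in 3 members all AC and PVP libraries were above all AC libraries (3.77% of all unigenes), DN55495, DN6400 and DN55782. Whether the carbon difference itself depended on PVP was tested as an interaction. It called 0 members by edgeR (0.00172% of all unigenes higher and 0% lower) and 0 by DESeq2. At an unadjusted edgeR p under 0.05 were 7 members, and 4349 of all 58247 unigenes. The lowest interaction adjusted p was that of DN1166, -2.58 (SE 0.636, adjusted p = 0.456) by edgeR. Fitted interactions were above 0 in 6 of 33 members, with a median of -1.31 against 0.22 for all unigenes.

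Other genes of the cell surface lipid pathway were counted in the same fits. Of 11 GPI-anchored lipid transfer proteins, which sit at the outer face of the plasma membrane, AC vs. CK called 1 higher and 4 lower, AC and PVP vs. CK 2 and 0, PVP vs. CK 2 and 0, AC vs. PVP 0 and 6, and both agents against PVP 0 and 2. Their median log2 fold changes were -2.67, -0.64, 1.27, -4.81 and -2.66 in the same order. Of 17 unigenes of cutin, suberin and wax synthesis, such as glycerol-phosphate acyltransferases and fatty acid hydroxylases, the same comparisons called 1 higher and 4 lower, 3 and 1, 0 and 0, 0 and 8, and 0 and 2, with medians of -1.72, -1.22, 0.91, -2.49 and -1.75. Of all tested unigenes, in the same order, 0.182%, 0.465%, 0.527%, 0.0618% and 0.0292% were called higher. Called lower were 0.142%, 0.371%, 0.175%, 0.201% and 0.0412%. The medians of all tested unigenes were -0.23, -0.12, -0.16, -0.03 and 0.00. The GPI-anchored list and the cutin, suberin and wax list were also drawn from the study's tables of differing genes, so their direction is not independent evidence.

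Summed levels of the cutin, suberin and wax unigenes were 71.1 to 132 CPM in the 6 carbon libraries and 150.4 to 563 CPM in the 6 others, without overlap. Those of the nsLTPs were 12024 to 37468 CPM in the carbon libraries and 2306 to 20492 CPM in the others, which overlapped.

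**Figure D5:**
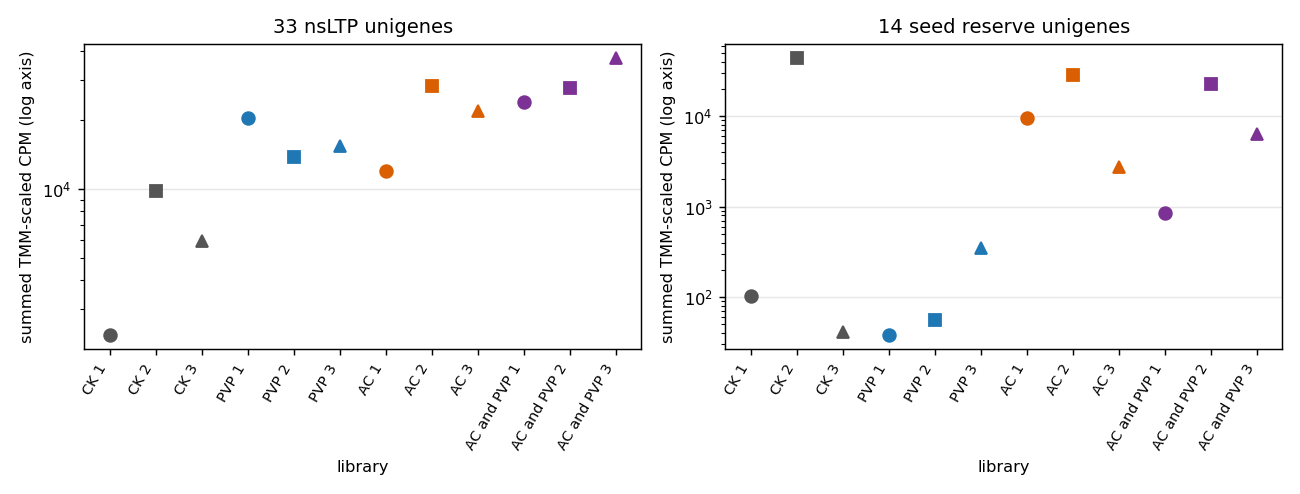
Summed TMM-scaled CPM, on log axes, of the 33 nsLTP unigenes and of the 14 seed reserve unigenes in each of the 12 libraries, coloured by group with marker shape for the replicate. The nsLTP sum is lowest in the CK libraries, while the seed reserve sum separates CK replicate 2 at 44117 CPM from the 2 other CK libraries.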

How the data were processed

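RNA of 12 seedling pools was sequenced, and per the labels and the study's methods the authors trimmed reads with TrimGalore 0.6.4, assembled all 12 libraries de novo with Trinity 2.4.0, aligned with Bowtie 1.2.3 and deposited RSEM 1.3.3 estimated counts (expected counts) per unigene, with no normalization. Between 2.39% and 3.97% of values were not whole; all were rounded. Copies assembled apart can share reads. A unigene was kept if its count exceeded 0 in 3 libraries or more (58247 of 130956), and those kept were fitted in edgeR 4.0.16 (R 4.3.3) by quasi-likelihood with TMM scaling and 4 group means, with Benjamini-Hochberg adjustment, and called at adjusted p under 0.05 and absolute log2 fold change over 1. SE is the fold change over the root of its F statistic. DESeq2 1.42.0, the study's tool, other scalings and filters, a replicate block and single libraries left out were alternatives. Exact intervals cover counting error only. Members, lists and rules were chosen with earlier results of these data known: every NLTPC, NLTP2 and NLTP3 unigene, each NLTP and NLTP1 called, and those of largest count (3 NLTP, 2 NLTP1) are given by library. Libraries are separate pools, and p-values measure the spread between them. The edgeR script was tested on simulated data. Sequences and lengths of the unigenes were not used here.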

Additional observations from a re-analysis of the deposited data

How the results depend on the processing

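Direction was the same in all 732 refits (among libraries left out, those of the groups compared) of the 43 calls of a named member in a comparison, and 158 of them lost the call; the cause was not tested. Counts of members called moved more, and so did the calls over all unigenes. In AC vs. CK those were 189 of 58247 in the edgeR fit and 823 with DESeq2 on all libraries. They were 725 with a replicate block and 1881 of 122088 with no filter. In the same order AC and PVP vs. CK had 487, 1608, 1446 and 2803, and PVP vs. CK 409, 1689, 1327 and 2449. Both agents against PVP had 41, 335, 440 and 1912, and AC vs. PVP 153, 721, 667 and 1743. The mean effect of carbon had 450, 949, 1124 and 2177. AC vs. CK gave 6 members in the edgeR fit, 22 with DESeq2 on all libraries, 21 with DESeq2 on the 2 groups, 26 with no filter, 22 with a replicate block, and 11 without both CK replicate 2 and AC replicate 2, a setting chosen after seeing the data. AC and PVP vs. CK gave 16, then 25 without those libraries, 25 with DESeq2 on the 2 groups, 9 with edgeR on the 2 groups, 27 with no filter and 25 with the replicate block. PVP vs. CK gave 2, then 9 without those libraries, 14 and 13 with DESeq2 on all libraries and on the 2 groups, 4 with legacy dispersion, 22 with no filter and 18 with the block. AC and PVP vs. PVP gave 4, then 7 and 20 with DESeq2, 8 with edgeR on the 2 groups, 1 with the filterByExpr filter, 18 with no filter and 8 with the block. AC vs. PVP gave 4, then 10 and 13 with DESeq2, 8 with edgeR on the 2 groups, 2 with filterByExpr, 14 with no filter and 8 with the block. AC vs. AC and PVP gave 0, then 1 with DESeq2 on all libraries or on the 2 groups, 1 with edgeR on the 2 groups, 2 with no filter and 1 with the block. The mean effect of carbon gave 11, then 22 without those libraries, 23 with DESeq2, 20 with legacy dispersion, 18 with library sizes only, 29 with no filter and 27 with the block. The interaction gave 0, and 6 with no filter. Leaving out 1 library gave 0 to 19 in AC vs. CK, 2 to 24 in AC and PVP vs. CK, 0 to 9 in PVP vs. CK, 0 to 4 for both agents against PVP, 1 to 5 in AC vs. PVP, 0 to 1 in AC vs. AC and PVP, 6 to 28 for the mean effect and 0 for the interaction.

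Over all unigenes, the AC vs. CK calls numbered 189, and PVP vs. CK calls were 75.1% higher with TMM scaling and 14.9% without it; the splits were 56.1% and 29.6% in AC vs. CK, 55.7% and 27.4% in AC and PVP vs. CK (69.3% with RLE), 41.5% and 67.7% for both agents against PVP, and 23.5% and 36.8% for AC against PVP. The labels do not say whether a replicate number marks a shared batch. The study's methods call the biological replicates of each sample paired, without saying what was paired with what. Since 6 of 18 same-number pairs had r over 0.1 (-0.134 to 0.206), and not all, the numbers were not treated as pairs; 8 of 12 libraries correlated best with their own number, a hint from the data, so pairing is undecided. The CK libraries were up to 16.8 times apart in the block of 12 members. Totals of 0 to 9 counts a group limit DN35416, DN9532 and DN24565 in CK and PVP, and DN16476 in PVP.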
